A study of Mus musculus with 2 samples.

Results

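The genes for the proteins of the cytosolic ribosome were followed in bone marrow neutrophils of mice labelled Jdp2 KO and of mice labelled Jdp2 WT. Members were the probe sets of an Affymetrix array whose single annotated symbol was that of a large-subunit (Rpl, Rplp) or small-subunit (Rps, Rpsa, Fau) ribosomal protein gene. Kinases of the Rps6k family, Rps19bp1 and symbols marked as pseudogenes were left out. This rule gave 106 of 45037 probe sets and 50 of 18193 genes, 26 of the large and 24 of the small subunit. Both groups had a C57BL/6 /129/J mixed background, and the cells were taken from marrow by sorting for CD11b and Ly6G with little Ly6C. Each genotype was measured on 1 array, so no difference has a spread between mice or a p-value, and 2 arrays limit the precision of every value. The sources used here give neither the number of mice behind an array nor the deleted part of Jdp2.

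A ribosome joins a small subunit, which reads the messenger RNA, to a large subunit, which forms peptide bonds and holds the tunnel through which the new chain leaves. Each subunit is ribosomal RNA wrapped by proteins that are made in nearly equal numbers, and cells therefore tend to adjust their messenger RNAs as a group. Most of these messenger RNAs begin with a run of pyrimidines, the 5′ terminal oligopyrimidine (TOP) tract, through which mTOR signalling and the protein Larp1 set their translation and stability. In the neutrophil line, ribosome production is a feature of dividing precursors in the marrow and declines as the cells mature.

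Values are log2 signals, and a difference is the knockout label minus the wild-type label. The stronger probe set of Jdp2 read 12.38 on the array labelled knockout and 11.997 on the other, so the labels are unchecked by the targeted gene. Neutrophil genes gave high signals on both arrays: S100a8 read 14.47 and 14.30, and Camp read 14.51 and 14.54. The array medians were 5.67 and 5.65, and the highest values were 14.56 and 14.54. A gene was given the value of its probe set with the highest mean signal, and it passed the level filter when that probe set reached the array median on at least 1 array.

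The ribosomal protein genes read slightly and rather evenly higher in the array labelled knockout. Of the 50 members, 44 had a difference above 0, against 46.5% of all 18193 genes without a level filter. The median difference was 0.24, which is 1.18-fold, against -0.03 for all genes. A difference of at least 0.25, or 1.19-fold, was seen in 21 members, against 22.7% of all genes, and one of -0.25 or lower in 3, against 26.2%. All 50 members lay within 2-fold, which 4.3% of all genes reached or exceeded. The pattern is thus one of many small differences, mostly of 1 sign. Between 0.15 and 0.35, a band around the members' own median, lay 27 of the 50. The share of all genes in that band was not counted, so this number describes the members only.

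**Figure D1:**
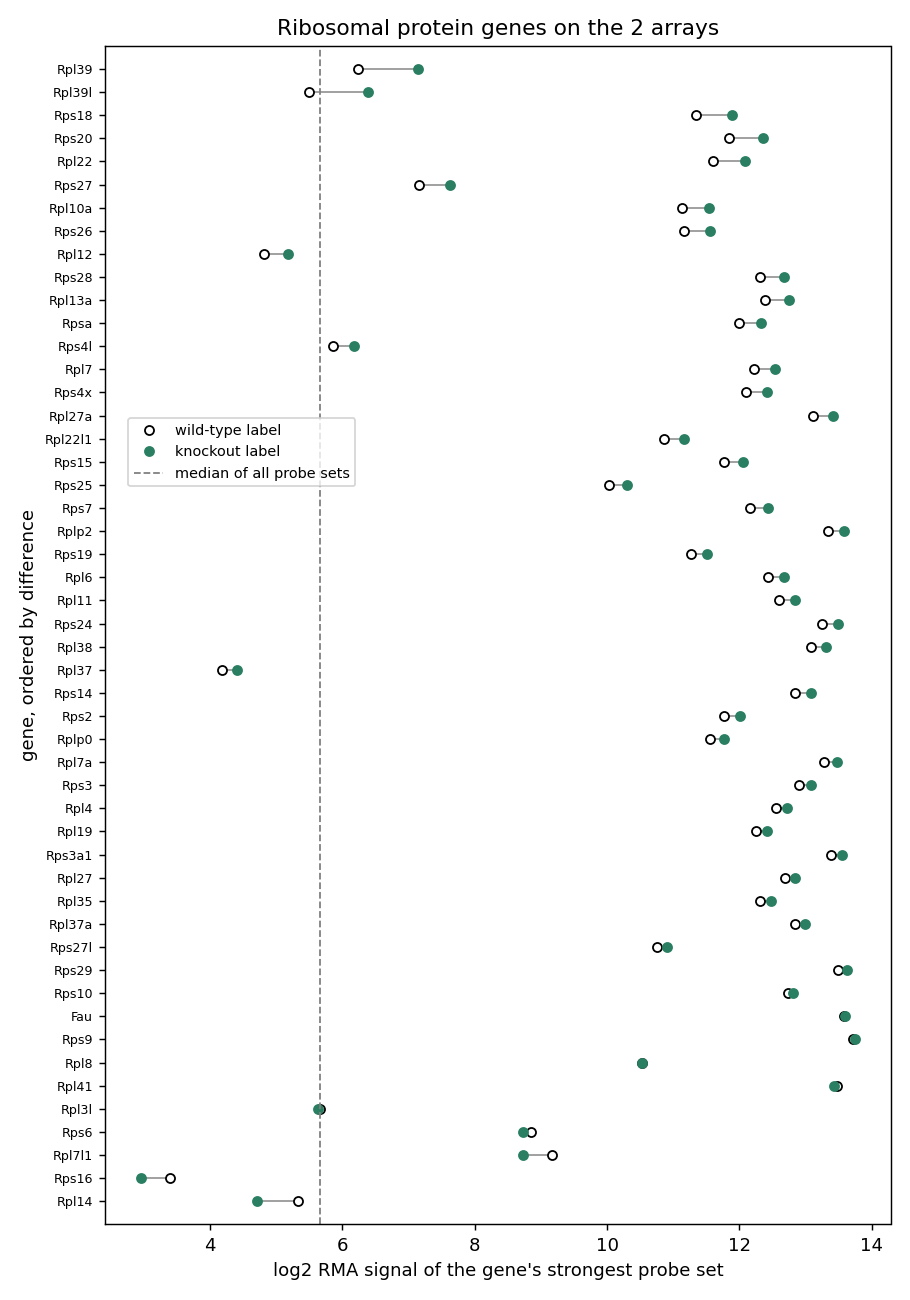
Log2 RMA signal (horizontal axis) of the strongest probe set of each of the 50 ribosomal protein genes, ordered by difference from top to bottom, with filled circles for the array labelled knockout and open circles for the array labelled wild type. The filled circle lies to the right for 44 genes, and the weak probe sets left of the dashed line, the median of all probe sets, include those of Rpl12, Rpl37, Rps16 and Rpl14.

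Of the 50 members, 46 passed the level filter, Rpl39l through the array labelled knockout only and Rpl3l through the other array only. The 4 that did not pass were Rpl12 (5.19 against 4.81), Rpl37 (4.42 against 4.18), Rps16 (2.96 against 3.40) and Rpl14 (4.72 against 5.34). Rpl12 and Rpl37 read higher and Rps16 and Rpl14 lower in the array labelled knockout, all at a signal at which background weighs heavily. Without them 42 members lay above 0 and 4 below, where 44.8% of the 11168 genes that passed lay above 0 and 5.39% were at least 2-fold apart. The probe sets of abundant genes vary less between arrays, so the members were also set beside genes of like signal. With a mean signal of 11 or more there were 36 members, of which 35 lay above 0, against 43.4% of 1784 genes. Of the 36, 15 reached 0.25, against 7.96% of those genes. Their median was 0.24 with an SD over genes of 0.13, while the 1784 genes had a median of -0.02 and an SD of 0.21.

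**Figure D2:**
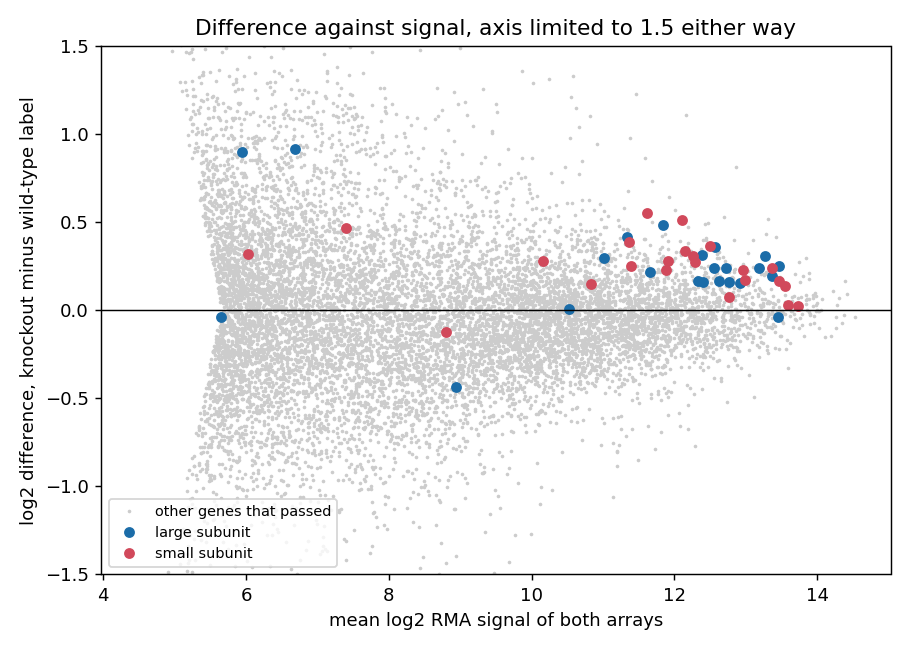
Log2 difference, knockout label minus wild-type label (vertical axis), against the mean log2 RMA signal of both arrays (horizontal axis), for the 11168 genes that passed the level filter, with large-subunit genes in blue and small-subunit genes in red. Of the 36 members with a mean signal of 11 or more, 35 lie above 0, and 164 other genes lie outside the axis.

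The size of the difference became smaller towards the top of the scale. The 9 members with a mean signal from 11 to 12 had a median difference of 0.30, the 17 from 12 to 13 one of 0.24, and the 10 above 13 one of 0.18. Over the 36 members with a signal of 11 or more, Spearman's rho between difference and signal was -0.66 and Pearson's r was -0.63, as a description across genes that share both arrays. Over all 1784 genes of that signal rho was 0.08. The part of signal compression in the smaller differences of the strongest probe sets was not tested.

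Large-subunit genes had a median difference of 0.24 over the 23 that passed, and 20 of them lay above 0, against 44.8% of all genes that passed. Small-subunit genes had a median of 0.25, also over 23, and 22 lay above 0. With paralogues left out, 18 of 19 large-subunit and 20 of 21 small-subunit genes lay above 0, against the same 44.8%, with medians of 0.24 and 0.25.

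Among large-subunit genes, those of the stalk that recruits translation factors read alike. Rplp0 read 11.76 under the knockout label and 11.55 under the wild-type label, a difference of 0.21; values below are given in that order. Rplp2, its partner in the stalk, read 13.58 and 13.33, a difference of 0.25. Rpl11, which binds 5S ribosomal RNA and can restrain the p53 inhibitor Mdm2, read 12.84 and 12.60. Each of these 3 genes was measured by 1 probe set and was higher by 1.16-fold to 1.19-fold.

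Genes for proteins of the peptide exit tunnel and its opening stayed below that size, with 1 exception. Rpl4, whose protein lines the tunnel, read 12.71 and 12.55, a difference of 0.17. Rpl19 read 12.42 and 12.25, again 0.17 higher. Rpl35 read 12.47 and 12.32, and its 5 passing probe sets ran from 0.11 to 0.23. The exception was Rpl39, a small protein inside the tunnel, which read 7.15 and 6.23, a difference of 0.91 or 1.88-fold. That was the highest difference of the 50 members, and it rests on 1 probe set of modest signal.

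Rpl22, an RNA-binding protein needed for the development of T cells, gave the highest difference among large-subunit genes with a strong signal. It read 12.09 and 11.60, a difference of 0.48, and its 3 passing probe sets ran from 0.44 to 0.60. Rpl10a, the protein of the stalk that helps spent transfer RNA to leave, followed with 11.54 and 11.13 (0.42). Rpl13a, also known as a part of an interferon-dependent translational silencer, read 12.74 and 12.38 (0.36), and its 4 probe sets ran from 0.36 to 0.77. Rpl27a read 13.42 and 13.11 (0.30), and Rpl7 read 12.54 and 12.23 (0.31). For these 5 genes every passing probe set was higher in the array labelled knockout.

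The remaining large-subunit genes that lay above 0 were closer together. Rpl6 differed by 0.24, Rpl38, known for its role in translating Hox messenger RNAs, by 0.24, and Rpl7a by 0.20. Rpl27 differed by 0.16 and Rpl37a by 0.15. Rpl8, whose protein sits near the catalytic centre, read 10.53 and 10.52, a difference of 0.01 that turned to -0.01 when arrays were centred on their medians.

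Rpl41, the shortest of these proteins, did not share the pattern. Its strongest probe set read 13.43 and 13.47, a difference of -0.04. Its 4 passing probe sets ran from -0.63 to 0.01, and their mean difference was -0.21. The weaker of them therefore lay lower in the array labelled knockout and the stronger ones close to 0.

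Small-subunit genes for proteins along the path of the messenger RNA lay above 0 in the 8 cases that passed, while Rps16 had only its weak probe set. Of all genes that passed 44.8% lay above 0, and of the 46 passing members 42 did, so this group was like the rest. Rps18 led with 11.89 and 11.34, a difference of 0.55 or 1.47-fold, and its 4 passing probe sets ran from 0.37 to 0.56. Its 2 probe sets under the level filter lay below 0, at -0.23 and -0.19. Rps26 read 11.55 and 11.17 (0.39) and Rps28 read 12.67 and 12.31 (0.36); both proteins lie where the messenger RNA leaves. Rps15 differed by 0.28, Rps2 by 0.23, and Rps14, whose loss of 1 copy marks a human anaemia with a chromosome deletion, by 0.23. Rps3, at the entry of the path, differed by 0.17, with a weaker passing probe set at 0.50. The 8 passing genes of this group had a median of 0.26.

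Fau, which encodes a small-subunit protein fused to a ubiquitin-like domain, stood at the low end of the group. It read 13.60 and 13.57, a difference of 0.03, which became -0.01 once the loess trend on signal was removed.

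Among the other small-subunit genes, Rps20 was second to Rps18 with 12.36 and 11.85, a difference of 0.51. Rps27 read 7.63 and 7.17 (0.47) on 1 probe set of modest signal. Rpsa, known also as a laminin receptor, differed by 0.33 and Rps4x, an X-linked gene, by 0.31. Rps25 differed by 0.28, Rps7 by 0.27, Rps24 by 0.24 and Rps3a1 by 0.16. Rps29 differed by 0.14 with its strongest probe set, while the other 2 read 0.36 and 0.40.

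Rps6 and Rps9 had the lowest differences among the small-subunit genes that passed. The strongest probe set of Rps9 read 13.74 and 13.72 (0.02), another read 0.10, and the weakest, at 7.34 against 8.36, read -1.03. Removing the loess trend brought its strongest probe set to -0.01. Rps6, the substrate from which the S6 kinases take their name, read 8.73 and 8.86 (-0.13) with its only passing probe set. Rps10 lay above 0, but its strongest probe set (0.07) was the lowest of 5 that passed, the other 4 running from 0.20 to 0.30.

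Genes mutated in Diamond-Blackfan anaemia, an inherited failure of red cell production caused by loss of 1 copy of a ribosomal protein gene, followed the rest. Of 19 listed genes, 11 were measured under their own symbol, and all 11 lay above 0 with a median of 0.24, beside 44.8% of all genes that passed. They ran from 0.07 for Rps10 to 0.47 for Rps27. Rps19, the gene most often affected, read 11.51 and 11.27, a difference of 0.25.

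**Figure D3:**
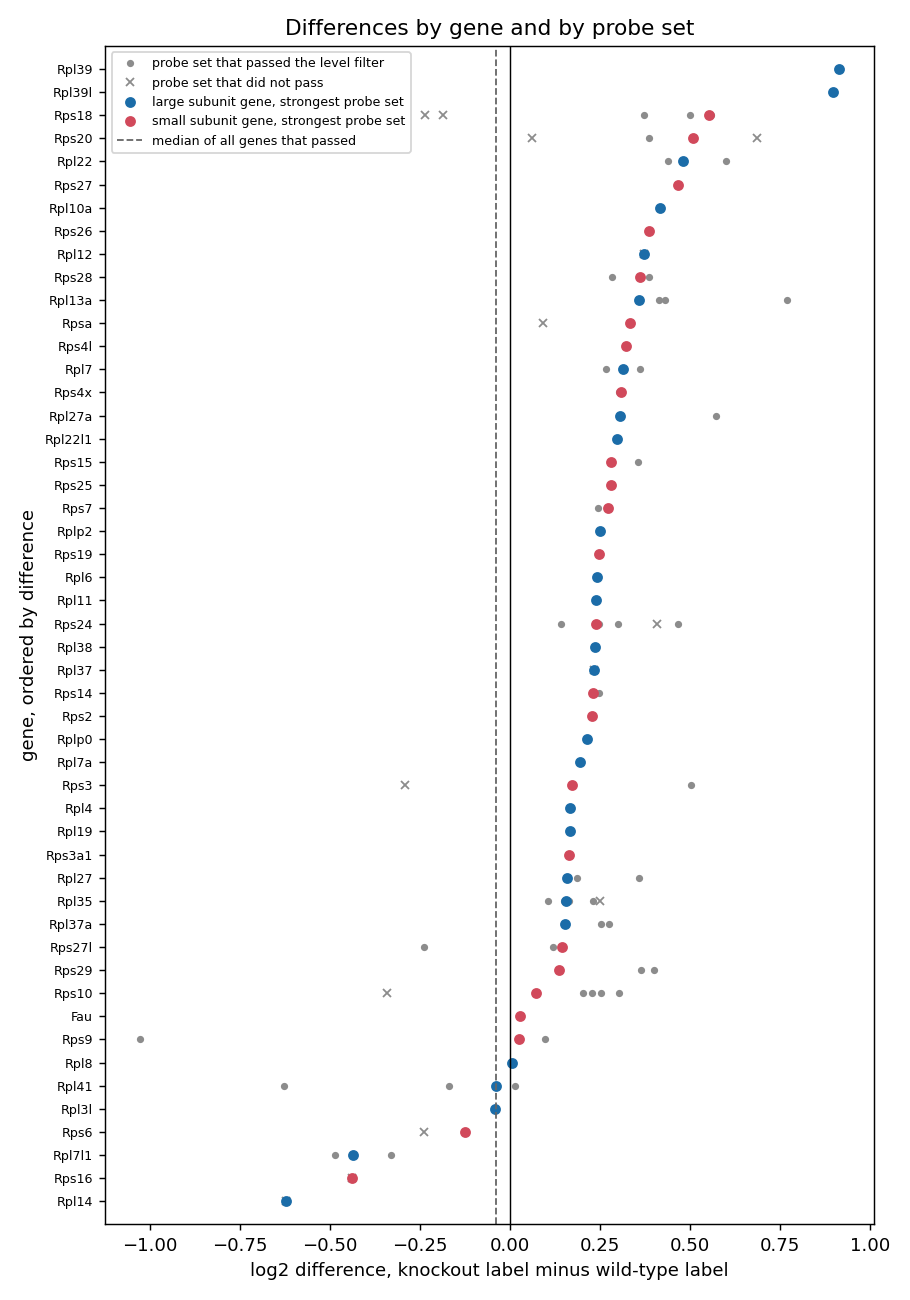
Log2 difference, knockout label minus wild-type label (horizontal axis), of each ribosomal protein gene (vertical axis, ordered by difference), with the strongest probe set in blue (large subunit) or red (small subunit) and the other probe sets in grey, crosses marking those under the level filter. Most passing probe sets lie between 0.10 and 0.60, and those of Rpl41, Rps9 and Rps27l lie on both sides of 0; a scaling alternative turned the sign of Fau, Rps9 and Rpl8.

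The probe sets of a gene allow an estimate of the spread between probe sets, and no other spread can be estimated. Of the 50 genes, 26 had 1 probe set and 22 had 2 or more that passed. In 18 of the 22 all passing probe sets lay above 0, in 1 (Rpl7l1) all lay below 0, and in 3 (Rps9, Rps27l and Rpl41) they had both signs. The same count over all genes was not made, so these numbers describe the members only. Within a gene, the SD of the difference among such probe sets had a median of 0.09, smaller than the median difference of 0.24. All probe sets saw the same RNA on the same 2 arrays, so this SD holds no spread between mice, labellings or arrays. It therefore cannot show whether 0.24 exceeds technical spread. Counted singly, 82 of 92 passing probe sets lay above 0, against 45.2% of the 24089 probe sets that passed. Among the 14 weak member probe sets that did not pass, 7 lay above 0.

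Paralogues, the duplicated or tissue-restricted relatives of ribosomal protein genes, varied more than the core set but also had weaker signals. Under the knockout label the median signal was 7.56 for the 6 passing paralogues and 12.61 for the 40 passing core genes. The part of signal in the wider spread was not tested. Rpl22l1, which can replace Rpl22, read 11.16 and 10.86, a difference of 0.30, beside 0.48 for Rpl22. Rpl39l, a relative of Rpl39 best known from testis, read 6.39 and 5.497 (0.90), close to the 0.91 of Rpl39. Counting from the array median, which exceeds its lower value, Rpl39l was 0.74 higher. Rps4l, annotated as a transcribed pseudogene, read 6.18 and 5.86 (0.32), beside 0.31 for Rps4x.

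The other paralogues had lower differences. Rpl7l1 was lower in the array labelled knockout, at 8.73 against 9.16 (-0.44), while Rpl7 differed by 0.31. Its 3 probe sets ran from -0.49 to -0.33, so that no value of Rpl7l1 overlapped those of Rpl7, which ran from 0.27 to 0.36. Rps27l, a target of p53, differed by 0.15 with its strongest probe set, and its 3 probe sets ran from -0.24 to 0.15, beside 0.47 for Rps27. The muscle gene Rpl3l read 5.63 and 5.67, at the array medians. Probe sets of close relatives can bind each other's transcripts, and how far they did so here was not tested.

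Many ribosomal protein transcripts have near-identical processed pseudogenes, and the array holds probe sets annotated to several symbols for that reason. Another 110 probe sets named several symbols with at least 1 ribosomal protein gene among them, and no gene is named from them here. Of these, 102 passed and 91 of the 102 lay above 0, against 45.2% of all probe sets that passed. Their median was 0.21, with quartiles of 0.10 and 0.31, and 43 reached 0.25, against 23.3%. They carry 46 ribosomal protein symbols, of which 15 are also members and 31 are on no member probe set. Of 10 passing members that could be compared with the median of their passing shared probe sets, 8 had the same sign. The shared probe sets thus gave small positive differences like those of the members. The shared probe sets were not used to choose the members, but they have symbols in common with them and were measured on the same pair of arrays.

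The starts of the genes were examined for the pyrimidine run of TOP messenger RNAs, because such a run is what most members are known to share. Of the 50 members, 44 matched 52 promoters by symbol in a RefSeq table of build GRCm38.p6, which gives 250 bases before and 50 bases after each annotated start. Runs were counted from 5 bases before the annotated start at the earliest and had to begin no more than 5 bases after it, so a run already under way was counted from that point on. A run of at least 8 pyrimidines by this rule was found in 16 of the 52 (30.8%), against 5.76% of all 32851 promoters of the table. The following 30-base windows, 15 bases before the start and 15 from it on, show members with such a run in capitals, followed by 3 without one. Capitals begin no earlier than 5 bases before the start, also where pyrimidines precede them, and end with the window.
Rps18 (chr17:33955651-33955680, minus strand): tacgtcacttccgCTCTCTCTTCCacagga
Rps27 (chr3:90213634-90213663, minus strand): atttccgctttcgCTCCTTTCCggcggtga
Rpl13a (chr7:45128731-45128760, minus strand): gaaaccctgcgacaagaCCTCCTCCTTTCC
Rplp2 (chr7:141447636-141447665, plus strand): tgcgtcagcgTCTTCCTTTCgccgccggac
Rpl35 (chr2:39005117-39005146, minus strand): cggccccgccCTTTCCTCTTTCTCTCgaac
Rps9 (chr7:3704026-3704055, plus strand): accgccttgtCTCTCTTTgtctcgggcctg
Rps6 (chr4:86857353-86857382, minus strand): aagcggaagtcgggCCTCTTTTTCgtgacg
Rpl7l1 (chr17:46782642-46782671, minus strand): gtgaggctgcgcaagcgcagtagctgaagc
Rpl41 (chr10:128549154-128549183, minus strand): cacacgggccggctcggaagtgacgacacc
Rpl22 (chr4:152324421-152324450, plus strand): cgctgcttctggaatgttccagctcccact

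The run did not go with the size of the difference. The 15 passing members with a run of at least 8 had a median difference of 0.24, and so had the 25 with a shorter run. Spearman's rho between run length and difference was 0.09 and Pearson's r was 0.03 over these 40 genes, as a description. Rps18 (0.55) and Rps6 (-0.13), at opposite ends of the small-subunit genes, both carry one, and Rpl22 (0.48) and Rpl7l1 (-0.44) both lack one in this window. An annotated start may lie some bases from the start used in these cells, so a missing run says only that these letters are not in the window.

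Letters bound by known factors were counted on both strands of the same 300-base promoters. The motif CCGGAAG, bound by ETS factors such as GABP, was in 21 of 52 member promoters (40.4%), against 8.86% of all 32851. AANATGGC, of the factor YY1, was in 9 (17.3% against 6.05%), and the E-box CACGTG, of Myc and its partners, was in 5 (9.62% against 7.15%). The table was not matched for base composition. Over all 44 members with a promoter, the 21 with CCGGAAG had a median difference of 0.24 and the 23 without it one of 0.21. This count, unlike that of the runs, includes members under the level filter: Rpl37 with the motif and Rpl12, Rpl14 and Rps16 without it.

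Jdp2 is known to bind 2 related motifs, TGANTCA of AP-1 and TGACGTCA, the cyclic AMP response element, so their matches in members are shown in capitals. TGANTCA was in 1 of 52 member promoters (1.92%), against 7.81% of all, and TGACGTCA in 3 (5.77% against 1.79%). The TGANTCA match lay 70 bases before a second annotated start of Rpl22 and the others lay 57, 97 and 45 bases before the starts of Rps9, Rpl27a and Fau.
Rpl22 (chr4:152325645-152325674, plus strand): tccagtctcccTGAGTCAttcgcagtggga
Rps9 (chr7:3703973-3704002, plus strand): gcggtgcgtgaTGACGTCActacaaggcga
Rpl27a (chr7:109519087-109519116, plus strand): gccgggagccgTGACGTCAggagcccttcc
Fau (chr19:6057891-6057920, plus strand): tcgcgctgcagTGACGTCAcacgcagcagg
Rpl22 differed by 0.48, Rpl27a by 0.30, Fau by 0.03 and Rps9 by 0.02, so members with these letters stood both high and low in the range. A match is a description of letters and not evidence of binding.

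Other genes of translation had smaller median differences than the ribosomal proteins. Of 17 passing elongation factors and other genes with a TOP tract or a related role, 15 lay above 0, against 44.8% of all genes that passed, with a median of 0.13 and none at or below -0.25. The nucleolar chaperone gene Npm1 differed by 0.47, the elongation factor gene Eef1b2 by 0.30, Naca, of a complex that meets new chains at the tunnel, by 0.26, and Tpt1 by 0.21, with another probe set of Tpt1 at -0.43. Of 23 initiation factors, 15 lay above 0, against the same 44.8%, with a median of 0.09. Eif3e (0.46) and Eif3b (0.44), subunits of the scaffold on the small subunit, were highest and Eif5b (-0.51) and Eif4g2 (-0.43) lowest, although another probe set of Eif4g2 read 0.73.

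**Figure D4:**
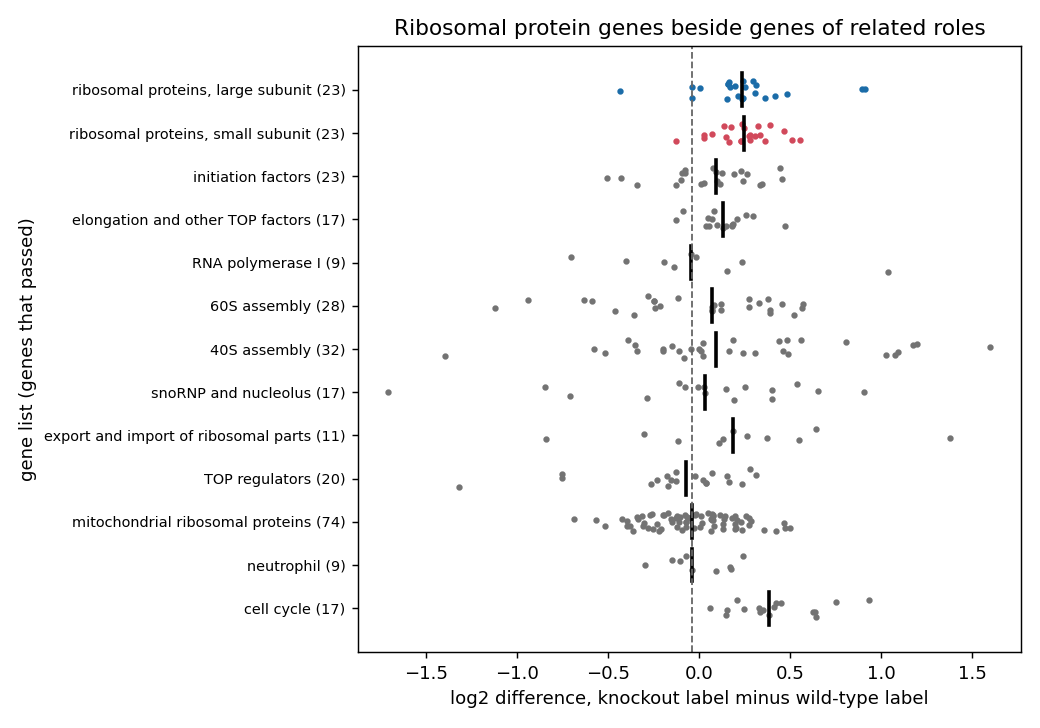
Log2 difference, knockout label minus wild-type label (horizontal axis), of every gene that passed the level filter in each list (vertical axis, number of genes in parentheses), with a black bar at the list's median and a dashed line at the median of all genes that passed, -0.04. The ribosomal protein genes centre on 0.24 and 0.25 with a narrow spread, while assembly factors scatter widely around smaller medians; the median of mitochondrial ribosomal proteins, -0.04, turned positive after quantile normalisation or loess.

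Genes that build ribosomes scattered widely, most of them at weaker signal. Of 32 passing small-subunit assembly factors, 19 lay above 0, against 44.8% of all genes that passed, with a median of 0.09, and of 28 large-subunit assembly factors 16, with a median of 0.07. The first ranged from Utp4 (-1.40) to Heatr1 (1.60), with Nob1 at 1.20 and Wdr36 at 1.17, though other probe sets of Heatr1 and Wdr36 reached -0.32 and -0.33. In the second list Lsg1 (-1.12), Mdn1 (-0.94), Gnl3l (-0.63) and Bop1 (-0.59) were lowest, with other probe sets of Mdn1 and Gnl3l at 0.33 and 0.04. The nucleolar list had 10 of 17 above 0 and a median of 0.03, from Nolc1 (-1.71, another probe set at 0.74) through Nop58 (-0.85) and Ruvbl2 (-0.71) to Naf1 (0.91). Nob1, Wdr36 and Naf1 passed the level filter through the array labelled knockout only, and Utp4 and Lsg1 through the other only. RNA polymerase I genes, which transcribe ribosomal RNA, had 3 of 9 above 0, with Taf1d at 1.04, Taf1b at 0.23, Polr1a at -0.70 (another probe set at 0.24) and Taf1c at -0.40.

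Transport and control genes lay on both sides of 0. Of 11 genes for export and import of ribosomal parts, 8 lay above 0, against 44.8% of all genes that passed, with a median of 0.18. That median was 0.085 with the mean and 0.075 with the median of a gene's probe sets. Ipo11 differed by 1.38, Xpo5 by 0.64 (another probe set at -0.11), Heatr3 by 0.55 and Aamp by -0.84. Of 20 genes that regulate TOP messenger RNAs or growth, 9 lay above 0, against the same 44.8%, with a median of -0.07. The mTOR inhibitor gene Tsc2 differed by -1.32, Larp1b by -0.76 (another probe set at 0.19), the S6 kinase gene Rps6kb2 by -0.76 and Eif4ebp1, a translation repressor, by 0.31.

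Mitochondrial ribosomal proteins, made in the cytosol for a separate ribosome, lay with all genes. Of 74 that passed, 34 were above 0, against 44.8%, with a median of -0.04 that became 0.01 after quantile normalisation and 0.02 after removal of the loess trend. Mrps18a (-0.69), Mrps11 (-0.57), Mrpl10 (-0.52) and Mrps25 (0.50) differed most, with other probe sets of Mrps11 and Mrps25 at 0.47 and -0.05. The 50 cytosolic members had a median of 0.24 beside them, and no test between the lists is possible with 1 array per group.

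Cell cycle genes, primary granule genes and monocyte and macrophage markers were also mostly higher in the array labelled knockout, while progenitor markers, given below, were not. All 17 passing cell cycle genes lay above 0, against 44.8% of all genes that passed, with a median of 0.38, and the summed linear signal of the 17 was 26825 in the array labelled knockout and 21723 in the other. Other probe sets of Mcm7, Tyms, Mcm6, Top2a and Rrm1 went as low as -0.43, -0.42, -0.16, -0.10 and -0.08. Of 8 genes listed as primary granule genes, 7 lay above 0, against the same 44.8% (median 1.95, summed signal 22619 against 15766). Primary granule proteins are made at the promyelocyte stage, but not all 8 genes encode one: Ms4a3 (1.04) and Clec11a (-0.65) do not. Ctsg and Prtn3 passed through the array labelled knockout only and Clec11a through the other only, and the median was 1.04 when both values had to reach the 75th percentile. Another probe set of Ctsc read -0.61. Of 15 measured monocyte and macrophage markers 14 lay above 0, against 46.5% of all genes without a level filter (median 1.17, summed signal 10752 against 6667). The exception, Irf8, did not pass the level filter (-0.39, another probe set at 0.65), and 6 of the 14 passed through the array labelled knockout only. Other probe sets of Cx3cr1, Fcgr1 and Ccr2 went as low as -0.69, -0.47 and -0.02. For comparison the summed signal of the 50 ribosomal protein genes was 267477 against 232172, and that of 9 neutrophil markers was 148540 against 147621. Of the 9 neutrophil markers 4 lay above 0, against 44.8%, with a median of -0.04. The part of cells with cell cycle, primary granule or monocyte and macrophage markers in the ribosomal protein differences was not tested. More cells of a type cannot be told apart from more RNA per cell.

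Markers of other lineages and of progenitors that passed the level filter were few. Of those that passed, 3 of 4 B cell, 2 of 3 T and NK cell and 1 of 4 progenitor markers lay above 0, against 44.8% of all genes that passed. The progenitor median was -0.32, and -0.14 for all 6 measured without a level filter. Kit (-0.82), Erg (-0.44) and Meis1 (-0.20) were lower and Gata2 (0.07) higher. Under the level filter, Cd34 read 4.95 and 4.15 (0.80) and Flt3 read 4.85 and 4.94 (-0.09). Other probe sets of Kit, Meis1 and Gata2 reached 0.06, 0.38 and -1.48. Among B cell markers, the factor gene Ebf1 read 8.33 and 8.64 (-0.31), while Igll1 (1.15), Cd79a (0.85) and Vpreb1 (0.10) were higher. Other probe sets of Ebf1 and Igll1 reached 0.27 and 0.06. Nkg7, of cytotoxic cells, read 7.63 and 6.93 (0.70), Cd3e was also higher (0.25) and Cd8a lower (-0.66). Igll1 passed through the array labelled knockout only and Cd8a through the other only. Of 5 measured erythroid markers 1 passed, Car2 (-1.29), and Hba-a1 read 3.35 and 3.05. The summed signal was 667 against 651 for 7 B cell markers, 366 against 306 for 4 T and NK cell markers and 383 against 467 for 6 progenitor markers.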

How the data were processed

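Total RNA of sorted bone marrow neutrophils was labelled with biotin and hybridised to 1 Affymetrix array per genotype, per the labels' protocols. The deposited values are log2 probe set summaries for which the submitters' processing notes name RMA, without version, settings or genome build. Sorted values of both arrays differed by at most 0.12. Of 45101 probe sets, 64 controls were left out. Of the other 45037, 34945 had 1 symbol in the platform annotation, 932 several and 9160 none listed. Symbols were checked through Entrez identifiers against a RefSeq table of assembly GRCm38.p6: 34741 matched and 0 symbols changed.

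Each gene took its probe set with the highest mean, and 11168 of 18193 genes passed the level filter. Differences were described by size with Python 3.11.15, pandas 2.3.3 and statsmodels 0.14.6. The procedure was tried on the same 2 arrays with differences shuffled among probe sets of like signal and a set shift added to members. Members and lists were chosen with earlier results of these data known. Any member could be named, and of each related list the 4 largest absolute differences; promoter motifs, the genes named as markers and probe set splits were chosen after values were seen. Alternatives were the mean or median of a gene's probe sets, no s_at or x_at probe sets, other filters, median centring, quantile normalisation, loess (span 0.3), symbols as annotated, and the core set without paralogues.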

Additional observations from a re-analysis of the deposited data

How the results depend on the processing

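The median difference of the ribosomal protein genes stayed between 0.22 and 0.25 under the 10 alternatives run, and the number above 0 between 36 and 44, with 40 to 50 members tested. The count at least 2-fold apart was 0 except without s_at and x_at probe sets, where it was 1, Rps9 at -1.03, because only its weakest probe set remains. Rps9 was also below 0 with the mean of its probe sets (-0.30) and after loess (-0.014). Fau was at -0.0068 after loess, which also set the list of ubiquitin fusions, with Fau its only measured gene, to -0.0068, and Rpl8 at -0.0094 with centred arrays. Among the lists, requiring the 75th percentile on both arrays turned the medians of 40S assembly (-0.046), nucleolar (-0.075) and B cell genes (-0.31). The mean of probe sets turned 40S assembly (-0.036), and 60S assembly turned with the median of probe sets (-0.20) and without s_at and x_at probe sets (-0.022). Without a level filter the T and NK cell median was -0.093 and the erythroid one 0.13. Mitochondrial ribosomal proteins read 0.015 and 0.019 after quantile normalisation and loess. For these list changes the cause was not tested. No paired analysis was possible because each group has 1 array. Signal near the array median limits Rpl39l, Rpl3l and Rps4l, and the top of the scale limits the strongest probe sets.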
